A study of Mus musculus with 7 samples.

Results

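Satb1, Lef1, Tcf7, Foxp1, Bach2, Klf2, Klf3 and Ets1 encode 8 transcription factors known from naive T cells, and their RNA was compared between CD4+ spleen cells of mutant and wild-type mice. The genes were taken by symbol, in a choice made with earlier results of these data known, and all 8 are among the 19589 genes of the deposited table. RT libraries came from 3 mice that lacked Tet2 and carried G17V RHOA (Tet2-/- G17VRHOA), and WT libraries came from 4 wild-type mice, all of the C57BL/6 strain. Each library is bulk RNA from CD4+ splenocytes obtained by flow sorting, and its values are RPKM, in which reads are divided by the length of the gene and by the size of the library. Tet2 encodes an enzyme that oxidises methylated cytosine in DNA, and G17V is a change in the small GTPase RHOA that is known from human T cell lymphoma. How the G17V RHOA is expressed, the age of the mice and any pooling of animals are not stated in the labels.

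A naive T cell has left the thymus, has not yet met its antigen and circulates through lymphoid organs in a resting state. Several DNA-binding proteins are known to hold it there. SATB1 organises chromatin, TCF-1 (from Tcf7) and LEF1 are high-mobility-group factors of the Wnt pathway, FOXP1 is a forkhead repressor that keeps cells quiescent, BACH2 represses effector genes, KLF2 drives genes for trafficking, KLF3 is a repressor of the same family, and ETS1 is needed for survival and T cell receptor signalling. Most of these genes are known to be turned down when CD4 T cells become effector cells, and TCF-1 and LEF1 are also known to act in early follicular helper T cells.

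Depth split the libraries into a deep and a shallow set, each with both genotypes. A single read is worth a fixed step in RPKM, and from these steps the deep libraries RT1, WT1 and WT2 held 10954208, 8815583 and 10294115 reads in genes. The shallow libraries RT2, RT3, WT3 and WT4 held 95668 to 110391 reads. All 8 factors came out as whole reads in every library. For Satb1 this was so at a length of 12362 bases that was searched for to make its reads whole. The others came out whole at their GENCODE length. The total behind the RPKM values was larger than the reads in genes, which made up 47.5% to 51.4% of it in deep libraries and 87.7% to 90.7% in shallow ones. An RPKM value is thus lower in a deep library at the same share of gene reads, and levels across sets are also given as RPM, reads scaled to the total of gene reads only. Tet2 had 5.03, 0.803 and 0 RPKM in RT1, RT2 and RT3, against 6.32, 4.68, 2.86 and 2.79 RPKM in WT1 to WT4, so the RT1 library was not low in Tet2 reads, and a gene total does not show whether part of the gene is deleted. Rhoa had 57.8, 187 and 174 RPKM in RT libraries, against 64.0, 76.3, 181 and 183 RPKM in WT libraries, which does not separate G17V RHOA from the wild-type form.

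Markers of CD4 T cells were present in all 7 libraries, and RNA of other cell types differed between them. The 8 CD4 T cell markers summed to 3580, 7808 and 6731 RPM in RT1, RT2 and RT3, against 3692 to 4360 RPM in WT libraries. The 8 B cell markers summed to 157 to 387 RPM in RT libraries, against 205 to 261 RPM in WT1 and WT2 and 1485 and 1607 RPM in WT3 and WT4. The 5 plasma cell markers summed to 263 to 455 RPM in RT libraries, against 113 to 127 RPM in WT1 and WT2 and 1533 and 1729 RPM in WT3 and WT4. The 7 measured myeloid markers summed to 2313 RPM in RT1 and 282 and 399 RPM in RT2 and RT3, against 497 to 1083 RPM in WT libraries. Both CD8 T cell markers were low, at 0 to 9.06 RPM in RT libraries and 9.58 to 28.0 RPM in WT libraries. The 8 dendritic cell markers summed to 99.6 to 138 RPM in RT libraries, against 100 to 120 RPM in WT1 and WT2 and 527 and 523 RPM in WT3 and WT4. The 6 NK cell markers summed to 24.0, 606 and 281 RPM in RT1, RT2 and RT3, against 44.9 to 115 RPM in WT libraries. The 4 erythroid markers summed to 54.4 to 293 RPM in RT libraries, against 66.7 to 146 RPM in WT1 and WT2 and 939 and 822 RPM in WT3 and WT4. Cd8a, Tnfrsf17 (plasma cells), Siglech and Xcr1 (dendritic cells) and Ncr1 (NK cells) were at 0 in all RT libraries, and Klre1 (NK cells) was at 0 in all 7. The 8 markers of follicular helper T cells, a helper subset of germinal centres, summed to 2434, 2561 and 3623 RPM in RT libraries, against 429 to 879 RPM in WT libraries. The 5 markers of regulatory T cells summed to 1099 to 2364 RPM in RT libraries, against 567 to 982 RPM in WT libraries. These 5 went apart. In the fit on reads described below, 1 was higher (Ctla4) and 1 lower, against 9.58% and 8.21% of all genes, and Foxp3 was not called. The part of these cell types in the results on the 8 factors was not tested, and in bulk RNA fewer cells of a type and less RNA per cell cannot be told apart.

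**Figure D1:**
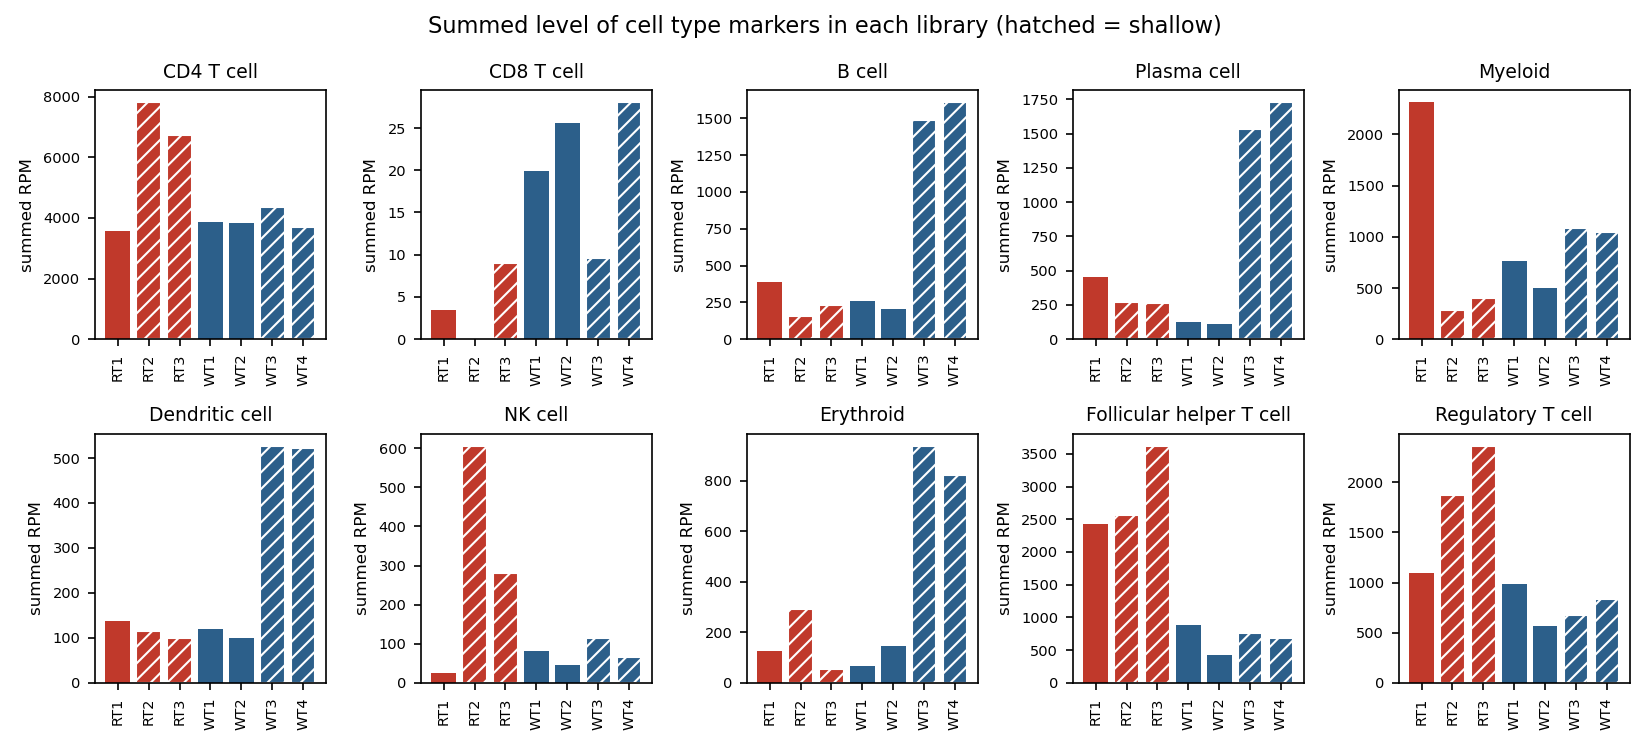
Each panel is a cell type, with 1 bar per library (RT libraries left of WT libraries, hatched bars for shallow libraries) and the summed level of its markers in RPM on an axis that starts at 0. The follicular helper sum was 2434 to 3623 RPM in RT libraries and 429 to 879 RPM in WT libraries, and the B cell sum was highest in WT3 and WT4, at 1485 and 1607 RPM.

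Fewer reads came from 7 of the 8 factors in RT libraries than in WT libraries, and Ets1 did not pass the test. This was the result of limma voom on the recovered reads of all 7 libraries, with genotype and library set as terms and a Benjamini-Hochberg adjusted p under 0.05. In that fit 8.21% of 5833 genes tested were lower in RT libraries and 9.58% were higher, and no factor was higher. The median log2 fold change of the 8 factors was −1.18, against −0.03 over all genes tested. All 8 factors had a log2 fold change below 0 in both library sets, as 31.1% of all genes did. Satb1, Bach2, Klf2, Lef1 and Foxp1 were called lower in the deep libraries alone, where 2.3% of genes were (and 4.61% higher), and Satb1, Foxp1 and Klf3 in the shallow libraries alone, where 5.35% were (and 3.79% higher). Satb1 and Foxp1 were called in both, as 0.72% of genes were. The fit in the deep libraries rests on 1 RT library, which is assumed to vary as the WT libraries do. The calls in the shallow libraries rest on few RT reads, 6 for Satb1, 7 for Foxp1 and 12 for Klf3. Their p-values lean on a variance shared over all genes and measure the spread between mice only weakly.

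The planned test, on log2(RPKM + 1), called none of the 8. It has no term for depth, but with a library set term it also called 0 of the 8, with 5 genes lower and 21 higher. On log2(RPM + 1) with that term and a trended prior, 0 of the 8 were called, with 31 genes lower and 48 higher. In the planned test by limma, 0.0104% of 9605 genes were called lower and 0.0416% higher. Satb1 came nearest among the factors there, at an adjusted p of 0.113. At an unadjusted p under 0.05, Satb1, Foxp1, Klf3 and Bach2 were lower, as were 4.16% of all genes, with 4.53% higher. The calls on recovered reads were also lost when RT1, the sole deep RT library, was left out and WT1 and WT2 were kept. The shallow libraries alone, which lack RT1 too, gave the calls for Satb1, Foxp1 and Klf3. In the fit without RT1 no gene of the table was called by limma voom. At an unadjusted p under 0.05 that fit gave 170 genes higher and 343 lower, Foxp1 and Klf3 among them. The log2 fold changes without RT1 were −3.95 for Satb1, −2.24 for Bach2, −2.21 for Foxp1, −2.04 for Klf3, −0.54 for Lef1, −0.33 for Tcf7, −0.24 for Klf2 and −0.07 for Ets1. Reads of the CD4 T cell markers were also used as the library size, a setting chosen after seeing the data. The log2 fold changes were then −4.13 for Satb1, −2.12 for Bach2, −1.85 for Lef1, −1.44 for Klf2 and −0.95 for Foxp1, all called. They were −0.63 for Klf3, −0.38 for Ets1 and −0.37 for Tcf7, not called.

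**Figure D2:**
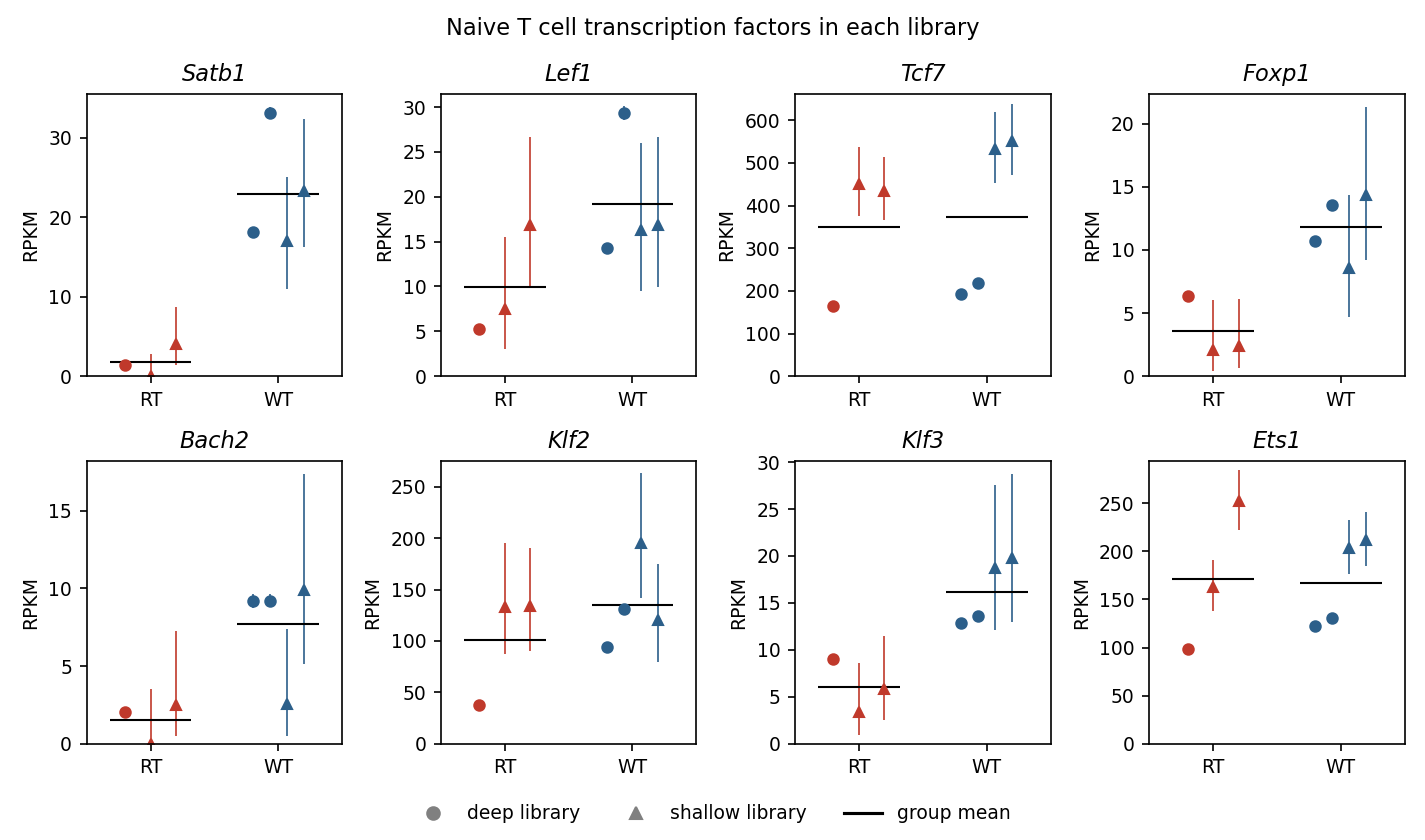
Each panel is a factor, and each point is the RPKM of an RT library (left) or a WT library (right). The axis starts at 0, and circles mark deep and triangles shallow libraries. Satb1 had 0 to 3.99 RPKM in RT libraries and 17.0 to 33.1 RPKM in WT libraries, whereas the RT and WT points of Tcf7, Klf2, Lef1 and Ets1 overlapped.

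Satb1 showed the largest decrease of the 8. SATB1 is a chromatin organiser that is abundant in thymocytes and naive T cells. Satb1 had 1.38, 0 and 3.99 RPKM in RT1, RT2 and RT3, against 18.1, 33.1, 17.0 and 23.3 RPKM in WT1 to WT4. Every RT library lay below every WT library, on the RPM scale as well, as did 5.57% of genes on that scale. These values stood on 373, 0 and 6 reads in RT1 to RT3 and on 4164, 8205, 25 and 35 reads in WT1 to WT4. For counting error only, the exact Poisson interval at 95% was 0 to 2.82 RPKM for the 0 reads of RT2 and 1.46 to 8.68 RPKM for the 6 reads of RT3. The mean was 1.79 ± 2.03 RPKM in RT libraries (SD, n = 3) and 22.9 ± 7.35 RPKM in WT libraries (SD, n = 4). Satb1 fell by 4.17 ± 0.34 (SE) on the log2 scale in limma voom, to 5.57% of the WT level (adjusted p = 0.000464). The log2 fold change was −4.17 ± 0.48 in deep libraries (adjusted p = 0.00429) and −3.84 ± 1.01 in shallow ones (adjusted p = 0.00521). The difference between sets was 0.16 ± 1.63 (adjusted p = 0.982, limma voom).

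Satb1 lies on the minus strand of mm10 at chr17:51736187-51833290 (GENCODE M21). All gene positions are of that build and annotation. The stretch before its start is shown because this factor changed most, from RefSeq's table for GRCm38.p6 (the assembly that mm10 names), chr17:51833291-51833540, read on the minus strand. No letter is in capitals, since none of the motifs searched was found in it.
Satb1: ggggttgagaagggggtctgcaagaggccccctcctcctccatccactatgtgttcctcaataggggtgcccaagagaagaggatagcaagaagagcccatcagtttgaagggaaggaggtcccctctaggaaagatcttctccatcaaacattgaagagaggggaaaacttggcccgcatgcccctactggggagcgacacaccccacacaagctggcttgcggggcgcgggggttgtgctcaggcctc
The motifs searched on both strands were CTTTGA (TCF and LEF factors), its longer form CTTTGATC, GGGCGG and CCACCC (KLF and SP factors), CCGGAAG (ETS factors), GTAAACA (forkhead factors) and TGANTCA (BACH and AP-1 factors). The short and the long TCF and LEF forms overlap by construction. Over 20595 promoter stretches of 250 bases, 13.5% held CTTTGA, 0.709% CTTTGATC, 39.4% GGGCGG, 29.1% CCACCC, 8.52% CCGGAAG, 2.75% GTAAACA and 6.44% TGANTCA. The table held a stretch for 7 of the 8 factors, all but Ets1. Of these 7, GGGCGG was in 5, CCACCC in 4, CTTTGA and CCGGAAG in 1 (Bach2 for both), and the other 3 motifs in 0. The 5 stretches with GGGCGG were rich in G and C, from 60.8% (Foxp1) to 78.4% (Klf3), against a median of 54% over all stretches. The motif counts were not adjusted for this. In the stretch of Tcf7, GGGCGG lies in an open reading frame that runs from an ATG to the end, so it may be coding sequence. The stretch of Bach2 lies 178631 bases from the GENCODE 5′ end of the gene, and that of Foxp1 1728 bases.

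Bach2 was the second factor by size of the decrease. BACH2 pairs with small MAF proteins and represses genes of effector differentiation. Bach2, on the plus strand at chr4:32238804-32586108, had 2.06, 0 and 2.48 RPKM in RT1, RT2 and RT3, against 9.18, 9.21, 2.54 and 9.93 RPKM in WT1 to WT4. WT3 was nearly as low as RT3, and each of these 2 values stood on 3 reads. The deep libraries gave the firmer values, with 446 reads in RT1, against 1695 and 1833 reads in WT1 and WT2. On the RPM scale the groups overlapped, with 0 to 40.7 RPM in RT libraries and 28.8 to 192 RPM in WT libraries. Bach2 fell by 2.18 ± 0.21 on the log2 scale in limma voom, or 4.54-fold (adjusted p = 0.000581). The deep libraries alone gave −2.18 ± 0.31 (adjusted p = 0.008), and the shallow ones −2.26 ± 1.25 with an adjusted p of 0.307 in limma voom, so the decrease was not detectable there at 3 reads over both RT libraries and 15 over both WT libraries. Without WT4 it had too few reads to be tested.

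The 2 factors of the TCF and LEF family were unlike in level. Both proteins bind the same DNA motif, and Tcf7 had the highest RPKM of the 8 factors. Lef1, on the plus strand at chr3:131110471-131224356, had 5.31, 7.53 and 16.8 RPKM in RT1, RT2 and RT3, against 14.3, 29.3, 16.3 and 16.8 RPKM in WT1 to WT4. The groups overlapped, since RT3 was level with WT3 and WT4. Reads for Lef1 numbered 1018, 7 and 18 in RT1 to RT3 and 2329, 5166, 17 and 18 in WT1 to WT4. Lef1 fell by 1.86 ± 0.34 on the log2 scale in limma voom (adjusted p = 0.00878). The log2 fold change was −1.97 ± 0.40 in deep libraries (adjusted p = 0.0273) and −0.54 ± 0.44 in shallow ones (adjusted p = 0.521, limma voom). The difference between the sets, 1.40 ± 1.35, did not pass its own test (adjusted p = 0.842, limma voom).

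Tcf7, on the minus strand at chr11:52252371-52283014, had 165, 450 and 435 RPKM in RT1, RT2 and RT3, against 192, 219, 532 and 551 RPKM in WT1 to WT4. Within each set the RT libraries lay below the WT libraries, and the gap was small. The share of all genes that did so was not counted, and 31.1% of genes had a log2 fold change below 0 in both sets. In RPM, Tcf7 had 863, 1307 and 1259 in RT libraries, against 1062, 1121, 1591 and 1645 in WT libraries. The log2 fold change was −0.34 ± 0.10 in limma voom (adjusted p = 0.0462), which is 79.2% of the WT level. Neither set alone gave a call, with −0.34 ± 0.23 in deep libraries (adjusted p = 0.491) and −0.33 ± 0.21 in shallow ones (adjusted p = 0.384, limma voom). The call was lost in 13 of 16 alternatives, among them leaving out any of RT1, RT3, WT3 and WT4, and on log2(RPKM + 1) the sign depended on which libraries were kept.

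The log2 ratio of Lef1 to Tcf7, each with 1 RPKM added, averaged −5.02 ± 0.61 in RT libraries (SD, n = 3) and −4.11 ± 1.03 in WT libraries (SD, n = 4). It was −4.72, −5.72 and −4.61 in RT1 to RT3, against −3.66, −2.86, −4.95 and −4.95 in WT1 to WT4. The groups overlapped over all libraries, and within the deep set RT1 lay below both WT libraries. The difference was −0.91 (two-sided exact permutation test over 35 splits without regard to library set, p = 0.286, 0.371 adjusted over 2 ratios). The smallest p that 3 against 4 libraries allow is 0.0571, so neither this ratio nor the next could pass 0.05. The stretch before the start of Lef1 that RefSeq gives is shown because LEF1 and TCF-1 both bind CTTTGA. It lies at chr3:131110073-131110322 on the plus strand (GRCm38.p6), and capitals mark CCACCC and GGGCGG.
Lef1: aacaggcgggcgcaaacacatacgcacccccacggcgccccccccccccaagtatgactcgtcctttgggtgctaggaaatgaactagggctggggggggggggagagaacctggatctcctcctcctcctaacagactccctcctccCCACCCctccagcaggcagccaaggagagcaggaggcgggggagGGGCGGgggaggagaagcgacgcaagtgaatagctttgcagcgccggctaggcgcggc
CTTTGA was not found in this window, which ends 148 bases before the GENCODE start of the gene.

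Foxp1 was lower in both library sets. FOXP1 is a forkhead protein known to keep naive T cells quiescent and to restrain follicular helper differentiation. Foxp1, on the minus strand at chr6:98925338-99522721, had 6.36, 2.06 and 2.39 RPKM in RT1, RT2 and RT3, against 10.7, 13.5, 8.56 and 14.4 RPKM in WT1 to WT4. Every RT library lay below every WT library in RPKM, which reads lower in deep libraries such as RT1. The share of all genes that did so in RPKM was not counted. In RPM the groups overlapped, since RT1 had 174 RPM and WT3 had 134 RPM. Reads numbered 1906, 3 and 4 in RT1 to RT3 and 2725, 3730, 14 and 24 in WT1 to WT4. Foxp1 fell by 1.01 ± 0.19 on the log2 scale in limma voom, to 49.7% of the WT level (adjusted p = 0.00909). The log2 fold change was −0.94 ± 0.22 in deep libraries (adjusted p = 0.0426) and −2.20 ± 0.59 in shallow ones (adjusted p = 0.00633), and the 2 sets did not differ past the threshold (adjusted p = 0.662, limma voom). A gene total does not separate the isoforms of FOXP1.

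Both Kruppel-like factors were lower in RT libraries, though Klf2 was called in the deep set and Klf3 in the shallow set. KLF2 is known to drive the gene for the sphingosine 1-phosphate receptor, which takes naive T cells out of lymph nodes. Klf2, on the plus strand at chr8:72319033-72321656, had 37.5, 133 and 134 RPKM in RT1, RT2 and RT3, against 94.1, 131, 196 and 120 RPKM in WT1 to WT4. RT1 was the lowest of all 7 libraries, while RT2 and RT3 lay within the WT range. Reads numbered 1508, 26 and 30 in RT1 to RT3 and 3227, 4837, 43 and 27 in WT1 to WT4. Klf2 had a log2 fold change of −1.35 ± 0.25 in limma voom (adjusted p = 0.00942), with −1.59 ± 0.25 in deep libraries (adjusted p = 0.011) and −0.24 ± 0.33 in shallow ones (adjusted p = 0.740).

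KLF3 binds the same sites as other Kruppel-like factors and is known mainly as a repressor. Klf3, on the plus strand at chr5:64803388-64832901, had 8.97, 3.36 and 5.85 RPKM in RT1, RT2 and RT3, against 12.8, 13.6, 18.7 and 19.7 RPKM in WT1 to WT4. Every RT library lay below every WT library in RPKM and in RPM, as did 5.57% of all genes in RPM. Reads numbered 2199, 4 and 8 in RT1 to RT3 and 2678, 3054, 25 and 27 in WT1 to WT4. Klf3 had a log2 fold change of −0.68 ± 0.19 over all libraries (adjusted p = 0.0393, limma voom). It was −0.58 ± 0.21 in deep libraries (adjusted p = 0.161) and −2.04 ± 0.49 in shallow ones (adjusted p = 0.00162, limma voom). The difference between sets was −1.51 ± 0.57 for Klf3 (adjusted p = 0.458) and 1.32 ± 0.57 for Klf2 (adjusted p = 0.560), and 67 of 5833 genes passed that test in limma voom. The call for Klf3 was lost in 12 of 16 alternatives, among them leaving out any of RT1, RT3, WT1, WT3 and WT4, and that for Klf2 in 4 of 16.

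The log2 ratio of Klf2 to Klf3 averaged 3.73 ± 1.58 in RT libraries (SD, n = 3) and 2.96 ± 0.36 in WT libraries (SD, n = 4). It was 1.95, 4.94 and 4.30 in RT1 to RT3, against 2.78, 3.18, 3.32 and 2.55 in WT1 to WT4, so RT1 lay below and RT2 and RT3 above all WT libraries. The difference was 0.77 (two-sided exact permutation test over 35 splits, p = 0.371, 0.371 adjusted over 2 ratios), and it was 1.66 without RT1 and 0.16 without RT2. The stretches before both genes are shown, up to their GENCODE starts, because KLF and SP factors are known to bind GGGCGG, which is in capitals. They lie on the plus strand of GRCm38.p6 at chr8:72318812-72319032 for Klf2 and chr5:64803271-64803387 for Klf3.
Klf2: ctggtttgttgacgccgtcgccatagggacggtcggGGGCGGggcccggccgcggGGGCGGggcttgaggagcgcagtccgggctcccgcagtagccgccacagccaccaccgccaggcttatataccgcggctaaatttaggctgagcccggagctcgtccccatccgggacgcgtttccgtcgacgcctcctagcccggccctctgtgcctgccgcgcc
Klf3: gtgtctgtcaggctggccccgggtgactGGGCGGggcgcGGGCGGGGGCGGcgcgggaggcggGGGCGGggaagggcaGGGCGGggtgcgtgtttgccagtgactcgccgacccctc
The 221 bases of Klf2 held GGGCGG 2 times and the 117 bases of Klf3 held it 5 times, 2 of them side by side. G and C made up 71.5% and 79.5% of these letters.

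Ets1 was the one factor not called. ETS1 is a lymphoid member of the ETS family. Ets1, on the plus strand at chr9:32636221-32757820, had 98.9, 163 and 252 RPKM in RT1, RT2 and RT3, against 122, 131, 203 and 211 RPKM in WT1 to WT4. The groups overlapped, and RT3 was the highest of all 7 libraries. It had the most reads of the 8, with 18273, 146 and 260 in RT1 to RT3 and 19230, 22186, 205 and 218 in WT1 to WT4. The log2 fold change was −0.26 ± 0.14 (adjusted p = 0.253, limma voom), with −0.38 ± 0.24 in deep libraries and −0.06 ± 0.20 in shallow ones. Ets1 was called in 0 of 16 alternatives.

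**Figure D3:**
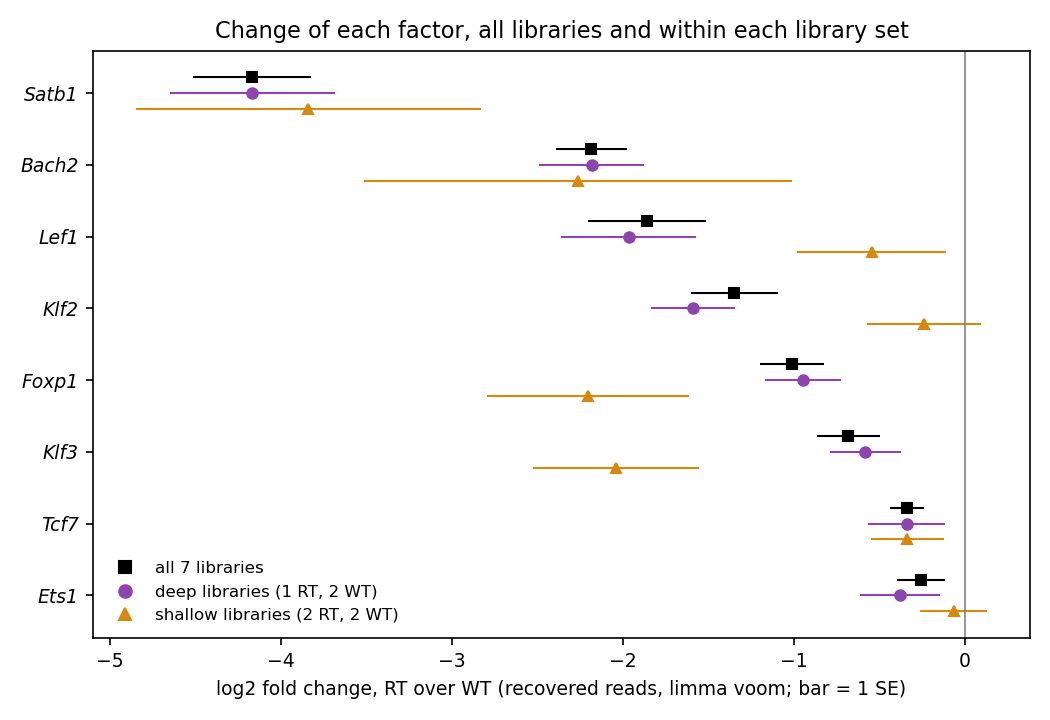
The horizontal axis is the log2 fold change of each factor, RT over WT, from limma voom on recovered reads, with squares for all 7 libraries, circles for deep and triangles for shallow libraries, and bars of 1 SE. All points lie below 0, from −4.17 for Satb1 to −0.26 for Ets1 over all libraries, and the sets lie furthest apart for Klf3, at −0.58 in deep and −2.04 in shallow libraries.

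The order of the factors by RPKM, which is per length, was alike in both groups apart from Satb1. In RT libraries the means ran from Tcf7 (350 RPKM) through Ets1 (171), Klf2 (101), Lef1 (9.89), Klf3 (6.06), Foxp1 (3.60) and Satb1 (1.79) to Bach2 (1.51). In WT libraries they ran from Tcf7 (374 RPKM) through Ets1 (167), Klf2 (135), Satb1 (22.9), Lef1 (19.2), Klf3 (16.2) and Foxp1 (11.8) to Bach2 (7.71). Among neighbours in these orders, only Klf2 and the factor after it had ranges that did not overlap, in either group. By its mean, Satb1 thus stood below Lef1, Klf3 and Foxp1 in RT libraries and above them in WT libraries.

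Gene reads given to the 8 factors together amounted to 3211, 3251 and 4239 RPM in RT1, RT2 and RT3, against 5151, 5882, 4773 and 5019 RPM in WT1 to WT4. The groups did not overlap in this sum, and how often a sum over other genes does so was not counted. Of the single factors, only Satb1 and Klf3 had every RT library below every WT library in RPM, as did 5.57% of all genes. Tcf7 and Ets1 made up 78.8%, 87.1% and 85.3% of the reads of the 8 factors in RT libraries and 63.0%, 55.7%, 74.5% and 73.4% in WT libraries. The other 6 factors, a split made after seeing the values, summed to 680, 418 and 625 RPM in RT libraries, against 1908, 2606, 1217 and 1336 RPM in WT libraries.

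Lists of related genes were read beside the 8 factors, and since they too were chosen with earlier results known, their counts are descriptions. Of 18 genes of naive T cell homing and survival tested, 15 were lower and 0 higher in limma voom, where 8.21% of all genes were lower and 9.58% higher, with a median log2 fold change of −2.41, against −0.03 over all genes. S1pr1, the receptor for exit from lymphoid organs, had 14.2, 21.7 and 37.8 RPKM in RT libraries, against 62.6, 96.4, 119 and 121 RPKM in WT libraries (−2.44 ± 0.22, adjusted p = 0.000481, limma voom). It is a known target of KLF2. Igfbp4 (−5.31 ± 0.43), Vipr1 (−4.98 ± 0.45), Dtx1 (−3.34 ± 0.30) and Als2cl (−3.12 ± 0.28) also fell, and every RT library lay below every WT library in RPM for these 5 genes, as for 5.57% of all genes. In shallow libraries alone the log2 fold changes were −2.58 for Igfbp4, −3.25 for Vipr1, −1.53 for Dtx1, −3.33 for Als2cl and −2.03 for S1pr1. Without RT1, 0 of the 18 were called in limma voom, their median was −1.89, and Igfbp4 stood at −2.60, Vipr1 at −3.25 and Dtx1 at −1.53.

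Of 25 regulators of quiescence tested, 2 were higher and 4 lower in limma voom, where 9.58% of all genes were higher and 8.21% lower, and the median was −0.05. Foxo1, the forkhead factor that drives Klf2 in T cells, had 8.68, 6.55 and 11.4 RPKM in RT libraries, against 22.1, 31.8, 28.1 and 18.0 RPKM in WT libraries (−1.62 ± 0.20, adjusted p = 0.00162). Its RT libraries all lay below its WT libraries, as happened for 5.57% of all genes in RPM. Runx3 (−1.39 ± 0.20), a Runt factor, Myb (−1.10 ± 0.20) and Elf4 (−0.43 ± 0.12) were also lower, and the higher pair, named after their values were seen, were Klf4 (1.67 ± 0.47) and Rb1 (1.06 ± 0.30). Klf4 and Rb1 had opposite signs in the shallow libraries, −2.63 and −0.45. The count of higher genes was 4 without WT1 and 1 without RT3, WT3 or WT4, and that of lower genes was 7 without WT2 and 2 without RT3, WT3 or WT4. Without RT1, 0 of the 25 were called in limma voom, Runx3 stood at −0.26, and Myb at −0.63. Elf4 also lost its call without any one of RT3, WT1, WT3 and WT4.

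Of 18 partners and known targets of the TCF and LEF factors tested, 4 were higher and 4 lower in limma voom, against 9.58% and 8.21% of all genes, with a median of −0.03. Bcl6, the lineage factor of follicular helper T cells, had 22.3, 24.0 and 34.4 RPKM in RT libraries, against 6.26, 4.84, 8.78 and 4.91 RPKM in WT libraries (adjusted p = 0.000636, limma voom). Ascl2 (4.00 ± 0.46), a basic helix-loop-helix factor, and Icos (1.43 ± 0.32), a costimulatory receptor, were higher, as was Csnk1a1 (0.70 ± 0.16), named after its value was seen. Bcl6, Ascl2 and Icos are also in the follicular helper marker list, whose sum is given above. Bcl9l (−1.73 ± 0.22), a coactivator of beta-catenin, Ccnd2 (−0.87 ± 0.13), Myc (−1.55 ± 0.24) and Pygo2 (−0.60 ± 0.17), the last also named after its value was seen, were lower. Ctnnb1, for beta-catenin itself, was at 0.04 ± 0.23 (adjusted p = 0.928, limma voom). Higher genes numbered 1 without RT3. Without RT1, 0 of the 18 were called, Ccnd2 stood at −0.45, Myc at −0.61 and Bcl9l at −3.34, and Icos lost its call also without RT3 or without WT4.

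Genes that BACH2 is known to repress, with its partners, gave 3 higher and 1 lower of 19 tested in limma voom, against 9.58% and 8.21% of all genes. Their median was 0.15, and its sign turned to −0.12 without WT2 and to −0.25 with the replicate number as a block. Batf, an AP-1 factor, had 105, 327 and 439 RPKM in RT libraries, against 33.8, 23.1, 61.6 and 68.9 RPKM in WT libraries (1.95 ± 0.23, adjusted p = 0.00141). Nfil3 was also higher (2.30 ± 0.48, 1.45 without WT2 and 1.49 without RT1). The small MAF partners went apart, with Mafg higher (1.24 ± 0.35, 0.69 without WT2) and Mafk lower (−0.63 ± 0.17). Prdm1, the repressor gene best known as a BACH2 target and named after its value was seen, was at 1.41 ± 0.57 (adjusted p = 0.131). Without RT1, 0 of the 19 were called in limma voom and the count of higher genes was 8 without WT1 and 2 without RT2, WT3 or WT4. The count of lower genes was 3 without WT2. Mafg kept no call without any one of RT2, RT3, WT3 and WT4, and Mafk none without WT1 or WT4.

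Relatives of the factors are read against the same shares of all genes, 9.58% higher and 8.21% lower. Of 8 other KLF and SP genes tested, Klf13 was lower (−0.92 ± 0.17, adjusted p = 0.00913, limma voom) and Klf4 higher, as above. Of 11 other ETS genes 4 were lower and 0 higher, namely Etv3 (−1.11 ± 0.16), Fli1 (−0.88 ± 0.19), Elf1 (−0.62 ± 0.17) and Elf4. Fli1 stood at −2.29 and Etv3 at −0.38 without RT1, and Elf1 lost its call without WT1, WT3 or WT4. Without WT1, 3 ETS genes were higher. Of 7 paralogs of the TCF, FOXP, BACH and SATB factors 2 had enough reads, and Foxp4 was higher (0.70 ± 0.16, adjusted p = 0.0194, limma voom), with 0.32 without RT1, where no relative was called. Foxp3, the regulatory T cell factor, was the other, at 0.33 ± 0.35 (adjusted p = 0.556). On log2(RPKM + 1), no gene of these 7 lists was called by limma.

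**Figure D4:**
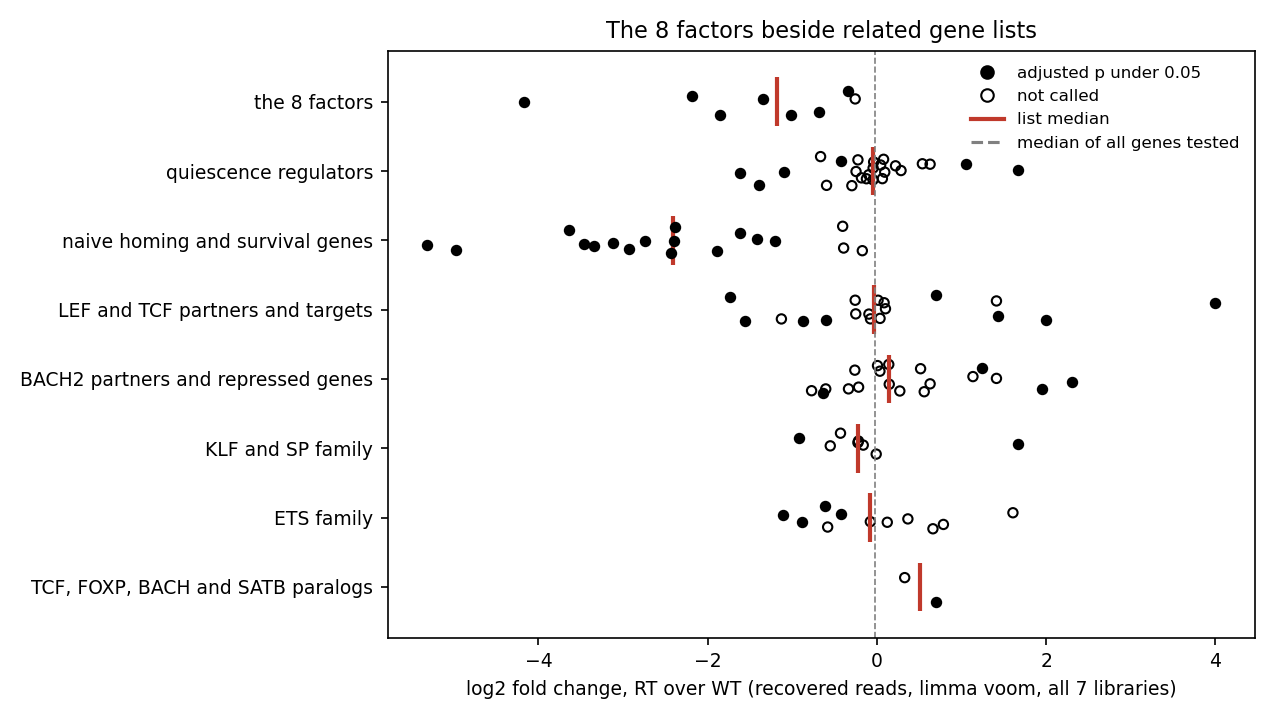
The rows are the 8 factors and the related gene lists, and each point is a gene at its log2 fold change, RT over WT, from limma voom on recovered reads of all 7 libraries, filled where the adjusted p was under 0.05. Red lines mark list medians, which were −1.18 for the 8 factors and −2.41 for naive homing and survival genes, against −0.03 for all genes tested (dashed line).

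The genes whose levels ran most like each factor over the 7 libraries are given as a description, with no test. The measure was Pearson's r on log2(RPM + 1), each gene centred within its library set, so points of a set share depth and the difference between genotypes. For Satb1 they were Il4ra (r = 0.997) and Slc12a7 (0.996), for Bach2 Mapre1 (0.998) and Map3k1 (0.995), for Lef1 Phgdh (0.972) and Cmtm6 (0.969), and for Tcf7 Prkd2 (0.998) and Ipo9 (0.994). For Foxp1 they were Gpr146 (0.988) and Fam168b (0.986), for Klf2 Pik3ip1 (0.991) and Tmc8 (0.984), for Klf3 Birc6 (0.996) and Arid2 (0.995), and for Ets1 Diaph1 (0.995) and Tfam (0.994). Among the 8 factors themselves, Satb1 and Bach2 ran most alike (0.961), followed by Foxp1 and Klf3 (0.958), and Klf2 and Bach2 least (0.318). Satb1 and Bach2 both had 0 reads in RT2, and Foxp1 and Klf3 had 3 to 8 reads in RT2 and RT3. Such low values weigh heavily in r on this scale. Il4ra encodes a chain of the interleukin-4 receptor and was lower in RT libraries (−1.26 ± 0.21, adjusted p = 0.00631, limma voom).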

How the data were processed

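The authors deposited RPKM values for 19589 gene symbols in 7 libraries, on mm10 per the submitters' processing notes. Their aligner, counter and annotation: not given in the sources used here. Genes were placed by symbol with GENCODE M21 (19432 found). Members and lists were chosen with earlier results of these data known.

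The planned test was limma 3.58.1 in R 4.3.3 (trended prior) on log2(RPKM + 1), for genes at 1 RPKM or more in 3 or more libraries. The second was limma voom on reads recovered from the RPKM steps, with genotype and library set, for genes with 10 or more reads over the shallow libraries. Tests were two-sided with Benjamini-Hochberg adjustment at 0.05. Of the low values, 78.9% to 83.8% per library came out whole (within 0.01 reads). Among genes above 0, 10311 had a GENCODE length, 2395 another single length (Satb1 among them), 1101 a length per set and 52 were rounded. Poisson intervals are at 95%. The 2 ratios were compared by exact permutation. Other scalings, filters, pseudocounts, library subsets, a replicate block and each library left out were tried. The procedure was tested on simulated data.

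The series describes separate mice, and nothing else says how they were collected. Among shallow libraries WT3 and WT4 were the closest pair (chi-square per degree of freedom 1.13, chi-square test over 2332 genes, p = 1.19e-05). They differed by more than sampling noise, which does not show that they are separate preparations, and were kept as 2 samples after the labels.

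Named were all members, Tet2, Rhoa, in each list up to 6 called genes of smallest p with like signs in both sets, the 2 most abundant genes of each marker list, and the 2 genes most like each member. The most abundant markers were Cd4 and Cd3e, Cd8b1 and Cd8a, Cd22 and Cd79b, Jchain and Xbp1, Csf1r and Lyz2, Itgax and Bst2, Nkg7 and Eomes, Hbb-bs and Hba-a1, Pdcd1 and Icos, and Ikzf2 and Ctla4. Some of the genes that would fall under these lists are not reported here by name.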

Additional observations from a re-analysis of the deposited data

Results flagged for a closer look

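Lef1 in WT libraries had 1 value far from the rest. WT2 had 29.3 RPKM, and the other 3 had 14.3, 16.3 and 16.8 RPKM, so that the gap was 0.83 of the group's whole range and only just past the critical value of Dixon's test. In RPM the same measure was 0.701, short of that value.

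Bach2 in WT libraries had 1 low value. WT3 had 2.54 RPKM, from 3 reads, and the other 3 had 9.18, 9.21 and 9.93 RPKM, a gap of 0.9 of the range. In RPM it was 0.510. Such a test marks about 1 group in 20 by chance.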

How the results depend on the processing

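On recovered reads, 7 factors were lower in the fit reported. The count was 2 without the library set term, 3 in shallow libraries alone, 0 on log2(RPM + 1) with a trended prior, and 5 or 6 under the other settings. With WT3 and WT4 summed it was 5, and Tcf7 (adjusted p = 0.110) and Klf3 (adjusted p = 0.0782, limma voom) lost their calls. Leaving out 1 library gave 0 (without RT1) to 7, with 4 without WT4, where Bach2 was not tested. Without RT1 the deep set has no RT library, and the shallow libraries alone, which lack RT1 too, gave 3. The cause was not tested. On log2(RPKM + 1) the count was 0 under all 13 alternatives. Whether replicate numbers pair the samples could not be told. On the RPM scale the correlations of deviations were −0.754, 0.470 and −0.121. Removing group and library set there forces the deviations of RT1 to oppose those of WT1 and WT2 together. On log2(RPKM + 1), which keeps the difference between library sets, they were 0.432, −0.179 and 0.184. A fit with the replicate number as a block gave 6 factors lower on reads and 0 on log2(RPKM + 1). On the latter scale Tcf7 stood at 0.18 and Ets1 at 0.11. Leaving out 1 library there gave −0.33 to 0.41 for Tcf7, −0.35 to 0.32 for Ets1 and −0.87 to 0.031 for Klf2. Both ratios kept their sign, and the design allowed neither to pass the threshold.

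Counts over all genes moved as well. On recovered reads, 559 genes were higher and 479 lower in the fit reported, against 306 and 206 without the library set term, 269 and 134 in deep libraries, 221 and 312 in shallow libraries, 48 and 31 on log2(RPM + 1), 347 and 296 with CD4 T cell marker reads as library size, and 0 to 784 higher and 0 to 686 lower on leaving out 1 library. On log2(RPKM + 1), 4 were higher and 1 lower in the fit reported, against 21 and 5 with a library set term, 10 and 6 with median-ratio rescaling, 0 and 0 with no filter, a pseudocount of 0.1 or the replicate block, 5 and 0 with a pseudocount of 5, and 0 to 10 higher and 0 to 5 lower on leaving out 1 library.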
